A study of Mus musculus with 8 samples.

Results

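The genes that run cell division were followed in dental tissue of Med1 conditional null (KO) and control (CON) mice at the maturation (Mat) stage of the lower incisor. They were taken by symbol from a list of 45 genes named for their textbook roles, which was chosen with earlier results of these data known. Of these, 12 act in S phase, when DNA is copied, 10 are cyclins, kinases or a transcription factor of G1 and of entry into S phase, 19 act in mitosis and 4 inhibit the cyclin-dependent kinases (CDKs). A probe of that symbol was found for 41 of the 45 genes, out of 16593 genes named on the array, and these had 73 of the 25697 probes. No probe carried the symbols Cdk4, Mki67, Ccnb1 or Aurkb, so these 4 genes were not analysed here.

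KO mice were MED1 fl/fl with a Cre transgene driven by the keratin 14 (K14) promoter, and CON littermates were MED1 fl/fl without Cre, both on a C57BL/6 background at 10 weeks (wk) of age. Their dental tissue was micro-dissected at the place where KO incisors carried hairs and lacked enamel and where CON incisors formed enamel. Tissue of 3 mice was combined, and 4 KO and 4 CON samples were each hybridised to an Illumina MouseRef-8 bead array. The K14 promoter directs Cre to keratin 14 expressing epithelia, and the dissected tissue also holds other cells, in which Med1 was not measured apart. Whether each array of a group had a pool of mice of its own is not clear from the labels. The p-values therefore cover the spread among these 8 samples and nothing wider, and that spread may be technical.

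A cell that divides passes through G1, copies its DNA in S phase and separates the copies in mitosis. D-type cyclins with Cdk4 or Cdk6, and then cyclin E with Cdk2, phosphorylate the retinoblastoma (Rb) proteins and so free E2F transcription factors, which switch on genes of DNA replication, while many genes of mitosis are switched on later through CHR and CCAAT elements in their promoters. In the mouse incisor, which grows throughout life, epithelial cells divide near the cervical loop, and ameloblasts of the Mat stage have left the cell cycle.

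Med1, the deleted coactivator, had log2 intensities of 7.67, 7.67, 7.30 and 7.53 on the KO arrays and 8.06, 8.58, 8.12 and 8.42 on the CON arrays. The groups did not overlap, and Med1 was lower by -0.76 ± 0.13 (SE) in KO, with an adjusted p of 0.00075 by limma. Its other 3 probes did not pass the filter on dim probes. All levels here are background-corrected and quantile-normalized log2 intensities, and a difference is the KO mean minus the CON mean on that scale. Arrays had mean signals of 550.8 to 811.9 intensity units and correlated at 0.992 to 0.993 within a group and at 0.911 to 0.923 between groups. The ameloblast genes Ambn and Klk4, which mark the labelled tissue, averaged 14.97 and 13.49 in KO, against 14.66 and 12.84 in CON. They and Enam (1.14) were higher, while Amelx (-0.25, adjusted p = 0.093) and Mmp20 (0.09) were not called. Precision is limited by the 8 arrays.

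Genes of cell division were mostly higher in KO. A probe counted as detected when its detection p-value against the negative control beads was under 0.01. The test took in probes detected on 4 or more of the 8 arrays, and the brightest of these stood for its gene. Of the 41 genes with a probe, 31 were tested, and 21 of these (67.7%) rose in KO at an adjusted p under 0.05, against 24.4% of all 9085 tested genes. Another 2 (6.45%) fell, against 36.5% of all tested genes, and 8 did not pass the threshold. The median difference of the 31 genes was 0.50, with a range of -0.81 to 1.91, against a median of -0.12 over all tested genes. The scaling bears on the background, since 37.5% of all called probes were higher in KO here and 56.7% under cyclic loess. A further 8 genes were detected on no array and 2, Ccne2 and Kif11, on some KO arrays only, and these 10 were not tested.

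The threshold itself was passed by 60.9% of all tested genes and 59.7% of all tested probes, so a call alone does not set a gene apart here. By size, 10 of the 31 rose more than 2-fold, against 10.2% of all tested genes. All KO and all CON arrays were separated, with no overlap of the groups, for 23 of the 31 genes, against 56.8% of all tested genes. These are not quite the called genes, since Tpx2 and Cdkn2c were called with overlapping groups and Ccnd3 and Cdk2 were separated without a call. All 31 tested genes were detected on every KO array, but Mcm3, Cdc6, Pcna, Rrm2, Bub1b and Tpx2 were detected on fewer than 4 CON arrays, so they entered the test through KO, and 3 of these 6 rose. In dissected tissue, a change in the share of a cell type and a change in RNA per cell cannot be told apart.

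**Figure D1:**
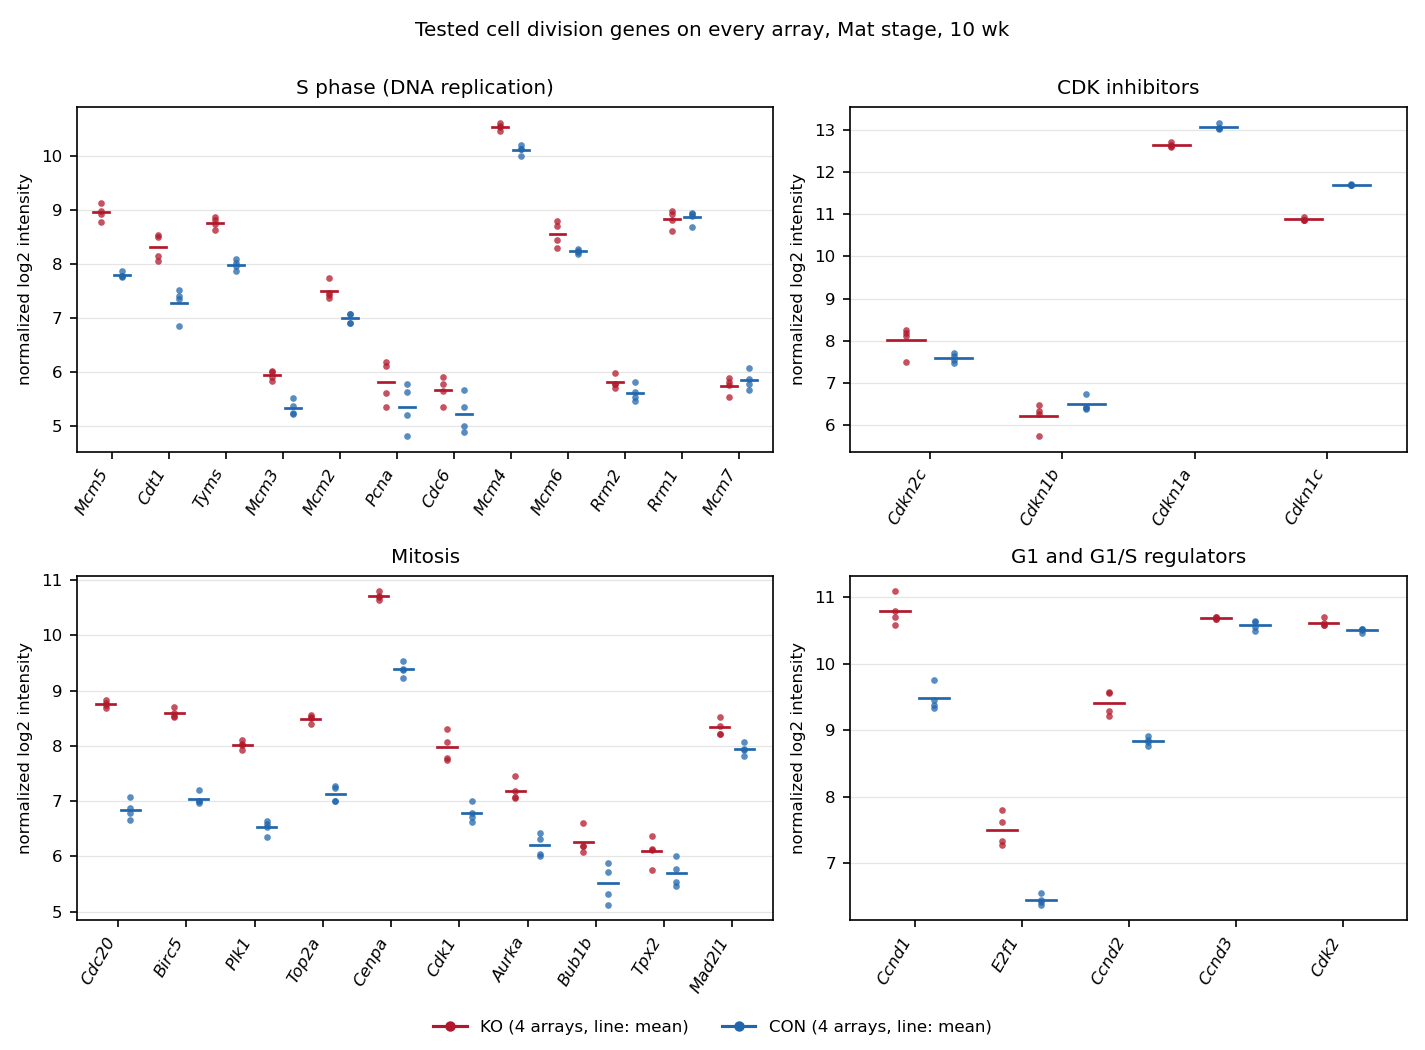
Normalized log2 intensity (y axis) of the 31 tested cell division genes on each array, in 4 panels by role, with KO arrays in red left of CON arrays in blue; each point is 1 array and each line a group mean. In the mitosis panel the points of KO lie above those of CON in every gene except Tpx2, where they overlap, while 5 of the 12 genes overlap in the S phase panel and Cdkn1a and Cdkn1c lie lower in KO.

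Mitosis genes showed the largest differences. All 10 tested mitosis genes rose in KO, against 24.4% of all tested genes, and 6 rose more than 2-fold, against 10.2%. The median difference of the 10 was 1.26, with a range of 0.39 to 1.91. The median was 0.81 with the deposited normalized values or with no background correction. Over the arrays, the mean of these 10 genes relative to CON was 1.07 to 1.19 in KO and -0.06 to 0.09 in CON. The remaining mitosis genes with a probe were dim on these arrays: Ccnb2, Bub1, Cenpe, Kif20a and Ube2c were detected on none of the 8 arrays, and Kif11 was not tested. The 10 are therefore the bright part of the list and not the list as a whole.

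Cdc20 activates the anaphase-promoting complex, which lets the chromatids part. It had 8.77, 8.84, 8.68 and 8.75 on the KO arrays and 6.79, 7.08, 6.66 and 6.87 on the CON arrays. The groups were far apart on every array, and Cdc20 rose 3.76-fold, by 1.91 ± 0.09 (SE, adjusted p = 8.1e-08). In the deposited intensities, before any correction, the same probe read 520.8, 755.8, 431 and 513 units in KO, against 192.6, 217.6, 203 and 231.5 units in CON. The other 2 tested probes of Cdc20 gave differences of 2.04 and 1.63.

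Birc5, or survivin, is a subunit of the chromosomal passenger complex. It had 8.55, 8.59, 8.53 and 8.70 on the KO arrays and 7.20, 6.97, 7.01 and 7.0 on the CON arrays, without overlap. Birc5 rose 2.93-fold, by 1.55 ± 0.08 (adjusted p = 9e-08), and all 3 of its probes rose, by 1.41 to 1.62. Plk1, the kinase that drives centrosome maturation and mitotic entry, had 8.03, 7.92, 8.11 and 8.02 in KO and 6.58, 6.65, 6.35 and 6.53 in CON. Its groups were again apart on every array, and it rose 2.82-fold, by 1.49 ± 0.08 (adjusted p = 2.1e-07).

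Top2a, the topoisomerase that untangles sister chromatids, had 8.53, 8.39, 8.50 and 8.56 on the KO arrays and 7.01, 7.01, 7.28 and 7.24 on the CON arrays. It rose 2.56-fold, by 1.36 ± 0.09 (adjusted p = 5.8e-07). Cenpa, the histone H3 variant that marks the centromere, had 10.72, 10.80, 10.64 and 10.69 in KO and 9.38, 9.23, 9.54 and 9.40 in CON, and rose 2.51-fold, by 1.33 ± 0.08 (adjusted p = 4.2e-07). In both genes each KO array was above each CON array by more than the whole range within a group.

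Cdk1, the kinase that starts mitosis, had 7.75, 8.30, 8.08 and 7.78 on the KO arrays and 6.71, 6.62, 7.0 and 6.79 on the CON arrays. KO arrays were more spread for Cdk1 than for the genes above, yet none reached down to CON, and it rose 2.30-fold, by 1.20 ± 0.14 (adjusted p = 3.8e-05). The spindle pole kinase Aurka followed with 0.99 ± 0.12 (adjusted p = 7.4e-05).

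Of the tested mitosis genes, Bub1b, Tpx2 and Mad2l1 had the smallest differences. Bub1b, a checkpoint kinase that was detected on 1 of the 4 CON arrays, rose by 0.75 ± 0.17 (adjusted p = 0.0041), and Mad2l1, the checkpoint protein that holds Cdc20 inactive, by 0.39 ± 0.09 (adjusted p = 0.0047). Tpx2, which activates Aurka on the spindle, rose by 0.40 ± 0.15 (adjusted p = 0.044), with KO arrays at 5.76 to 6.37 and CON arrays at 5.47 to 6.01. Tpx2 lost its call when any of KO arrays 1, 2 or 4 or CON arrays 1, 2 or 3 was left out, with differences of 0.31 to 0.42 and adjusted p-values of 0.062 to 0.12, and Mad2l1 lost it under median scaling (0.31, adjusted p = 0.064).

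Kif11, the motor that pushes the spindle poles apart, was detected on 2 KO arrays and on no CON array. It had 5.30, 5.56, 4.90 and 5.27 in KO and 5.29 or less in CON, so the groups overlapped near the detection limit and no fold is given.

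**Figure D2:**
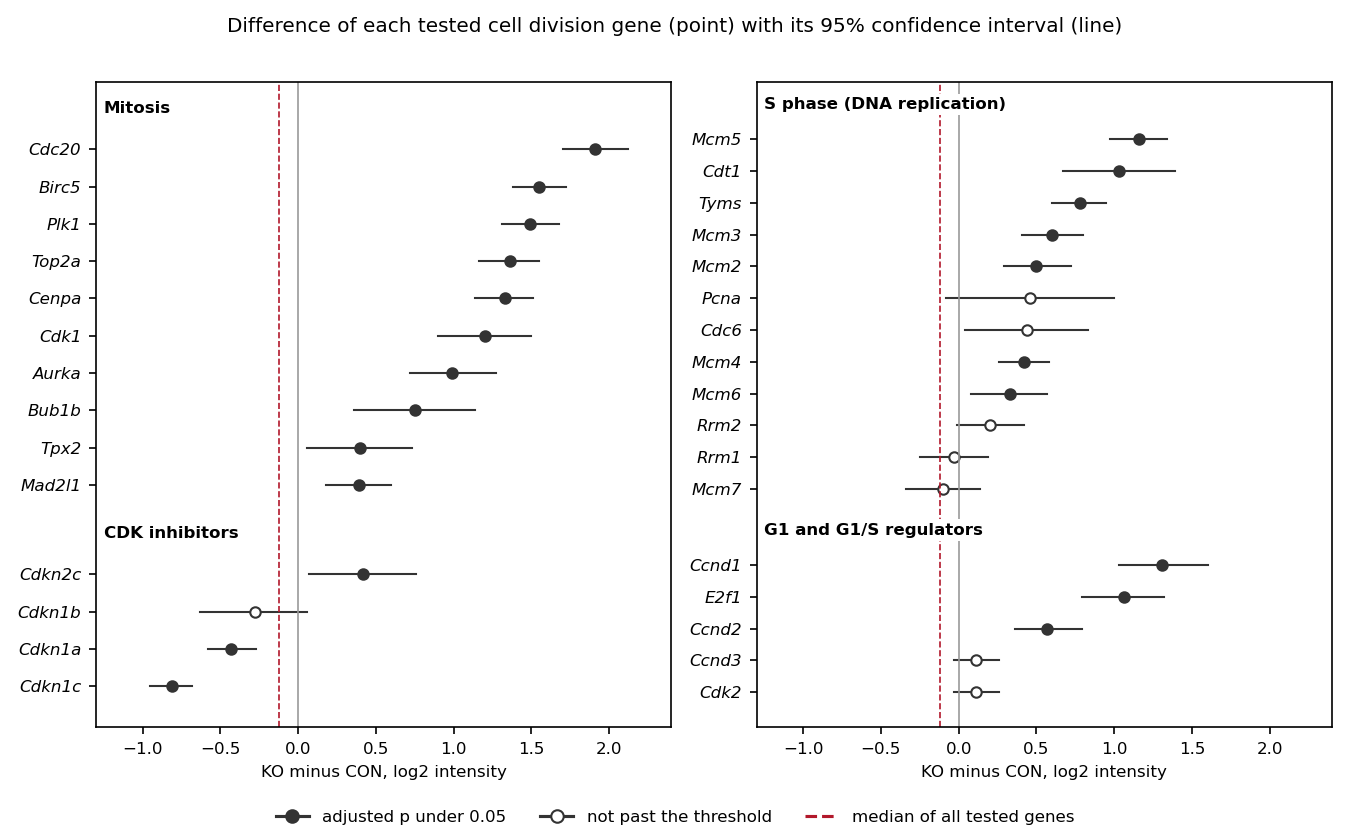
KO minus CON log2 intensity (x axis) of each tested cell division gene, as a point with its 95% confidence interval, for mitosis genes and CDK inhibitors at the left and S phase genes and G1 and G1/S regulators at the right; filled points passed the threshold and the dashed line is the median of all tested genes, -0.12. Mitosis genes run from 0.39 to 1.91 and S phase genes from -0.10 to 1.16, where the signs of Mcm7 and Rrm1 turned under cyclic loess and those of Ccnd3 and Cdk2 under median scaling.

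S phase genes changed less. Of the 12, which were all tested, 7 (58.3%) rose, against 24.4% of all tested genes, none fell and 5 did not pass. The median difference of the 12 was 0.45, with a range of -0.10 to 1.16. The median was 0.22 with the deposited normalized values or with no background correction. By array, the mean of the 12 relative to CON was 0.45 to 0.51 in KO and -0.01 to 0.02 in CON. The 7 were Mcm2 to Mcm6, Cdt1 and Tyms, while Mcm7, Cdc6, Pcna, Rrm1 and Rrm2 did not pass. Mcm6 is counted by its brightest probe, the only one of its 3 tested probes that was called.

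Mcm2 to Mcm7 encode the 6 subunits of the ring-shaped MCM helicase, which opens DNA at origins. On their brightest probes 5 of the 6 rose, unequally, against 24.4% of all tested genes, and the probes of Mcm6 disagreed. Mcm5 had 8.79, 8.98, 8.93 and 9.13 on the KO arrays and 7.79, 7.87, 7.76 and 7.79 on the CON arrays. The groups stood well apart, and Mcm5 rose 2.23-fold, by 1.16 ± 0.08 (adjusted p = 1.4e-06). Mcm3 had 5.91, 5.84, 6.01 and 6.03 in KO and 5.23, 5.24, 5.38 and 5.53 in CON and rose by 0.60 ± 0.09 (adjusted p = 0.00024). It was detected on 1 of the 4 CON arrays.

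Mcm2 had 7.46, 7.43, 7.75 and 7.38 on the KO arrays and 7.08, 7.07, 6.92 and 6.92 on the CON arrays, a rise of 0.50 ± 0.10 (adjusted p = 0.0013). Mcm4 had 10.62, 10.56, 10.47 and 10.54 in KO and 10.14, 10.13, 10.01 and 10.21 in CON, a rise of 0.42 ± 0.07 (adjusted p = 0.00067). Both were separated on all arrays, at less than 1.5-fold.

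Mcm6 rose least of the called subunits, by 0.33 ± 0.11 (adjusted p = 0.025) on its brightest probe, with KO arrays at 8.30 to 8.80 and CON arrays at 8.19 to 8.28. Its other 2 tested probes gave 0.03 and -0.07 and were not called, so the probes of Mcm6 disagreed. Its call was also lost without KO arrays 1 or 3 or CON arrays 2 or 4 (0.25 to 0.32, adjusted p = 0.052 to 0.069). Mcm7 differed by -0.10 with a 95% interval of -0.34 to 0.14, and its groups overlapped.

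Cdt1 loads the MCM ring onto origins together with Cdc6. It had 8.06, 8.50, 8.15 and 8.54 on the KO arrays and 7.35, 6.85, 7.42 and 7.52 on the CON arrays. Cdt1 rose 2.04-fold, by 1.03 ± 0.16 (adjusted p = 0.00039), the largest SE among the S phase genes that rose. Cdc6 gave 0.44 ± 0.18 and did not pass (adjusted p = 0.054). It was detected on 1 CON array, and it passed when KO array 3 (0.55, adjusted p = 0.027) or CON array 3 (0.59, adjusted p = 0.01) was left out.

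Tyms, the thymidylate synthase, had 8.87, 8.81, 8.63 and 8.74 on the KO arrays and 8.02, 7.88, 7.96 and 8.10 on the CON arrays. It rose 1.71-fold, by 0.78 ± 0.08 (adjusted p = 2e-05), with no overlap. Rrm1, the large subunit of ribonucleotide reductase, had 8.99, 8.93, 8.82 and 8.61 in KO and 8.89, 8.95, 8.69 and 8.93 in CON. These values overlapped throughout, and the difference was -0.03 with a 95% interval of -0.25 to 0.19. Its partner Rrm2 gave 0.20 ± 0.10 (adjusted p = 0.096), and passed when CON array 4 was left out (0.27, adjusted p = 0.032). Pcna, the sliding clamp of the polymerases, gave 0.46 ± 0.24 (adjusted p = 0.13), with KO arrays spread from 5.36 to 6.19 and CON arrays from 4.82 to 5.79. Its probe was detected on 1 CON array.

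**Figure D3:**
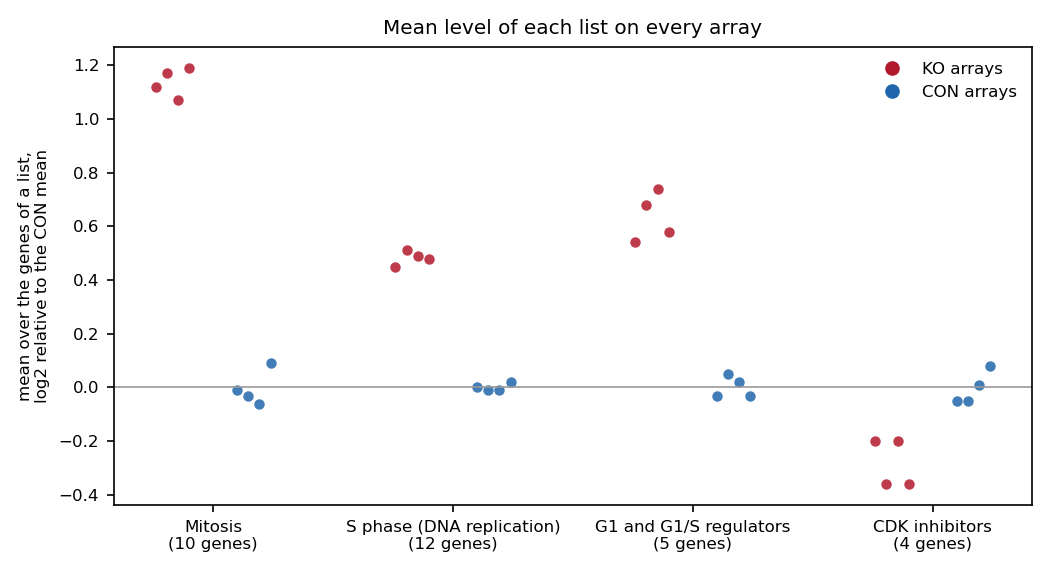
Mean log2 level over the tested genes of each role relative to the CON mean (y axis), with 1 point per array, KO in red left of CON in blue. KO arrays lie at 1.07 to 1.19 for mitosis, 0.45 to 0.51 for S phase, 0.54 to 0.74 for G1 and G1/S regulators and -0.36 to -0.20 for CDK inhibitors, and the 4 arrays of each group lie close together.

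The contrast of mitosis with S phase came to 0.81 between the medians, and no S phase gene reached the mitosis median. The lists still overlapped. Mcm5 and Cdt1 stood above Aurka, Bub1b, Tpx2 and Mad2l1, and the differences of Tpx2 and Mad2l1 lay below the S phase median. Among genes detected on all 8 arrays, 8 of 8 mitosis genes and 6 of 8 S phase genes rose, against 21.0% of all genes so detected, and the medians were 1.34 and 0.46, which are 0.88 apart. The contrast is a description without a test. With no filter on dim probes, which adds the mitosis genes that were not detected, the mitosis median was 0.59 and the contrast 0.14, so it holds for the detected genes only.

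Promoters were set beside this contrast. RefSeq promoters (build GRCm38.p6) were matched for 36 of the 45 genes, and the 250 bases before each start were searched on both strands for TTTNNCGC (E2F), TTTGAA (CHR) and CCAAT, where E2F matches may overlap each other. The 12 S phase promoters belong to 11 genes, since Mcm7 is counted more than once and Mcm4 has none. An E2F match was found in 4 of these 12 promoters (33.3%) and 1 of 16 mitosis promoters (6.25%), against 4.28% of all 32851 promoters. A CHR match was found in 1 S phase promoter (8.33%) and 7 mitosis promoters (43.8%), against 16% of all promoters. Of these 7 mitosis genes, Ccnb2, Kif11, Ube2c and Mki67 were not tested or had no probe, and among the tested mitosis genes with a promoter 3 of 9 (Cdc20, Cdk1 and Top2a) held a CHR match. CCAAT was found in 9 S phase promoters (75.0%) and 14 mitosis promoters (87.5%), against 33.8% of all promoters. A match is a description of letters and not a site shown to be bound.

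The 3 mitosis promoters printed here belong to genes that rose more than 2-fold and hold CHR and CCAAT matches. Each is the 200 bases before the start, 5′ to 3′ on the strand of the gene, with the matched letters in capitals, and ATTGG and TTCAAA are CCAAT and CHR read on the other strand. In Cdk1, TTTCGCGC and TTTACCGC are E2F matches.
Cdc20 (chr4:118437344-118437543, minus strand): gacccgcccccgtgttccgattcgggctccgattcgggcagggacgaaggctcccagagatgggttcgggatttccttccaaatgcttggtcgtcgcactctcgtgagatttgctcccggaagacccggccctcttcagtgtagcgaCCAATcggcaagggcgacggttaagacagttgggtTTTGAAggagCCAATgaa
Top2a (chr11:99024190-99024389, minus strand): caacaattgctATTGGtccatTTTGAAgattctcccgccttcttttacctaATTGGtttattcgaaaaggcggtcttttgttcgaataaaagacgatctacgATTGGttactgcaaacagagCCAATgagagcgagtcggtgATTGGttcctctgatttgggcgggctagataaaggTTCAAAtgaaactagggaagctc
Cdk1 (chr10:69352913-69353112, minus strand): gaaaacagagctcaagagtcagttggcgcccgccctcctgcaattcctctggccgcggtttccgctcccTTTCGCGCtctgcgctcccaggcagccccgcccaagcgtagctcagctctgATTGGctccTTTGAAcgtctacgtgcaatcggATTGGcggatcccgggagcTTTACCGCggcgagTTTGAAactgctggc

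Top2a holds 6 CCAAT and 2 CHR matches within the 250 bases searched, Cdk1 holds 3 and 2, and Cdc20 holds 2 and 1. Plk1, Cenpa and Aurka, which also rose, hold CCAAT and no CHR match in this window, and Birc5 holds none of the 3 motifs there.

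The S phase promoters printed next are those with more than 1 E2F match, of the subunit that rose most and of the called subunit that rose least. The capitals mark E2F and CCAAT matches as before, and each run of 12 capitals is a pair of overlapping E2F matches on opposite strands.
Mcm5 (chr8:75109309-75109508, plus strand): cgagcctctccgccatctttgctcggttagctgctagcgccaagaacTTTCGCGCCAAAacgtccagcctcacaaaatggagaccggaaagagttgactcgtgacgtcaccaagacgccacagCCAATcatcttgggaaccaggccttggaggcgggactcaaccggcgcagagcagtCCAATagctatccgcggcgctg
Mcm6 (chr1:128359706-128359905, minus strand): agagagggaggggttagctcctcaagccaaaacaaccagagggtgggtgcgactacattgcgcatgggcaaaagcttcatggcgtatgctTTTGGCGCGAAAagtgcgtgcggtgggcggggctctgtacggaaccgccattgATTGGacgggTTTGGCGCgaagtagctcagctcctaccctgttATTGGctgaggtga

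Mcm6 has 3 E2F matches and Mcm5 has 2, where overlapping matches are counted apart. Mcm5 rose by 1.16 and the probes of Mcm6 ranged from -0.07 to 0.33. A link between the matches and the size of a rise was not tested. Cdt1 and Tyms, which rose, hold no E2F, CHR or CCAAT match in the window.

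Regulators of G1 and of entry into S phase were uneven. Of the 9 with a probe, 5 were tested and 3 (60%) rose, against 24.4% of all tested genes, with a median difference of 0.57. Cdk6, Ccne1 and Ccna2 were detected on no array. Among the D-type cyclins, which link growth signals to the cell cycle, Ccnd1 and Ccnd2 rose and Ccnd3 did not pass.

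Ccnd1, or cyclin D1, had 10.71, 10.58, 11.09 and 10.80 on the KO arrays and 9.38, 9.46, 9.76 and 9.33 on the CON arrays. It rose 2.49-fold, by 1.31 ± 0.13 (adjusted p = 1.3e-05), and its 3 probes rose by 1.10 to 1.31. Ccnd2 had 9.29, 9.58, 9.56 and 9.21 in KO and 8.85, 8.91, 8.82 and 8.77 in CON, without overlap, and rose by 0.57 ± 0.10 (adjusted p = 0.00061).

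Ccnd3 had 10.68, 10.70, 10.68 and 10.71 on the KO arrays and 10.49, 10.63, 10.56 and 10.64 on the CON arrays on its brightest probe. The KO arrays were all higher, but by 0.11 ± 0.07, which did not pass (adjusted p = 0.17) and turned to -0.06 under median scaling. Another probe of Ccnd3 fell by 0.60 ± 0.10, so no direction is given for the gene. Cdk2, the partner of cyclins E and A, gave 0.11 ± 0.06 on its brightest probe (adjusted p = 0.16), which likewise turned to -0.05 under median scaling. Its other 3 probes gave -0.13, -0.19 and -0.43, and only the last passed. On their brightest probes both genes were called higher under cyclic loess, Ccnd3 by 0.21 (adjusted p = 0.026) and Cdk2 by 0.21 (adjusted p = 0.021), and with the methods' t-test after Benjamini-Hochberg (adjusted p-values of 0.043 and 0.029).

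E2f1, the transcription factor that Rb holds back, had 7.28, 7.80, 7.62 and 7.33 on the KO arrays and 6.45, 6.56, 6.38 and 6.42 on the CON arrays. It rose 2.08-fold, by 1.06 ± 0.12 (adjusted p = 3.3e-05), with the KO arrays all well above CON. Ccne2, a cyclin E that rises at the start of S phase, was detected on 3 KO arrays and no CON array, with 5.84, 5.45, 5.29 and 5.27 in KO and 4.48, 4.83, 4.92 and 5.27 in CON. Its highest CON array met the lowest KO array near the detection limit, where its detection p-values were 0.01378 in CON and 0.01003 in KO, and no fold is given.

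**Figure D4:**
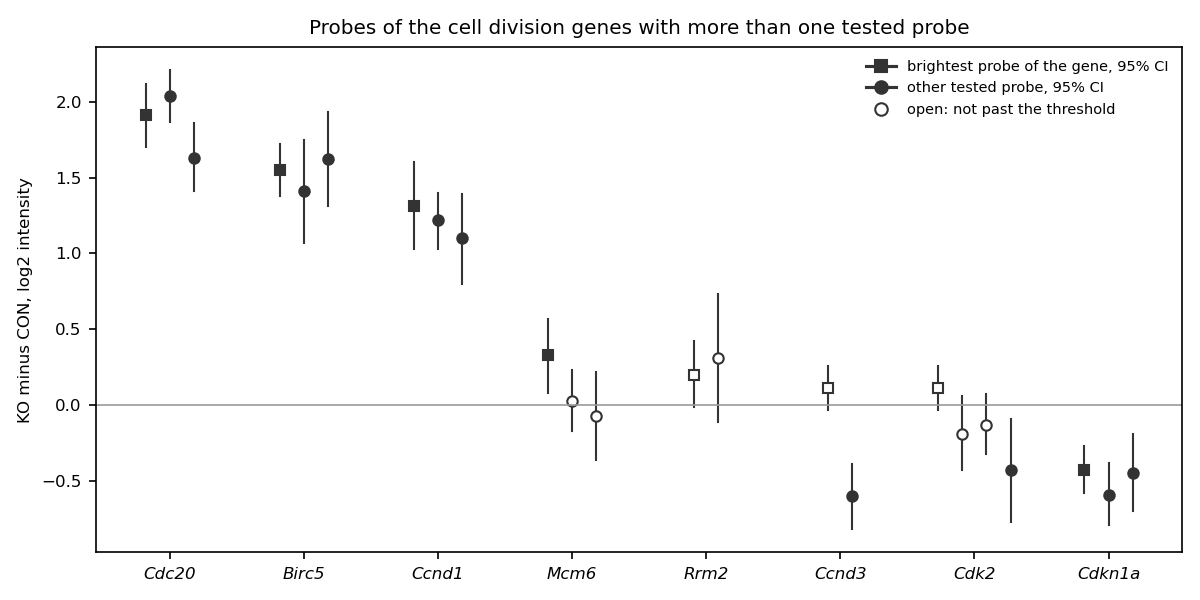
KO minus CON log2 intensity (y axis) with its 95% confidence interval for each tested probe of the 8 cell division genes that had more than 1 such probe, with the brightest probe as a square and open symbols for probes not past the threshold. The probes of Cdc20, Birc5, Ccnd1 and Cdkn1a all passed in the same direction, those of Rrm2 all missed the threshold, and those of Mcm6, Ccnd3 and Cdk2 differed in call.

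CDK inhibitors, the brakes on the kinases, were split. All 4 were tested, Cdkn1c and Cdkn1a fell, Cdkn2c rose and Cdkn1b did not pass, with a median difference of -0.35. The 2 that fell (50%) stand against 36.5% of all tested genes, and the 1 that rose (25%) against 24.4%. With 4 genes these shares do not set the list apart. Cdkn1c, or p57, which is found in cells that have left the cell cycle, had 10.93, 10.87, 10.86 and 10.87 on the KO arrays and 11.69, 11.69, 11.71 and 11.70 on the CON arrays. Its arrays were almost identical within each group, and it fell by 0.81 ± 0.06, or 1.76-fold (adjusted p = 1.7e-06).

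Cdkn1a, or p21, the inhibitor that p53 induces, had 12.62, 12.72, 12.59 and 12.64 on the KO arrays and 13.02, 13.05, 13.17 and 13.05 on the CON arrays. It fell by 0.43 ± 0.07 (adjusted p = 0.00043), and its 3 probes gave -0.43 to -0.59, all past the threshold. Cdkn2c, or p18, which binds Cdk4 and Cdk6, had 8.25, 7.50, 8.12 and 8.19 in KO and 7.55, 7.48, 7.64 and 7.71 in CON. KO array 2 lay within the CON range, and Cdkn2c was called higher by 0.42 ± 0.15 (adjusted p = 0.039).

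The call of Cdkn2c was lost without KO arrays 1, 3 or 4 or CON arrays 1, 2 or 3 (0.34 to 0.43, adjusted p = 0.062 to 0.1), and without KO array 2 the difference was 0.59. Cdkn1b, or p27, had 6.27, 6.34, 6.48 and 5.74 on the KO arrays and 6.41, 6.43, 6.39 and 6.74 on the CON arrays. These overlapped, with a difference of -0.28 and a 95% interval of -0.63 to 0.06.

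Further genes of the cell cycle were taken from lists of the same roles. These lists and that of p53 targets were chosen with earlier results of these data known, so their counts are no independent support. Of 21 other tested mitosis genes 20 (95.2%) rose, against 24.4% of all tested genes, none fell and Mybl2 did not pass, with a median of 1.10. Those with the largest moderated statistic were Cdca3 (1.52 ± 0.09), which takes part in mitotic entry, the kinesin Kif2c (1.62 ± 0.09), and Anln (1.63 ± 0.10) and Prc1 (1.10 ± 0.07) of the cleavage furrow and spindle midzone, with adjusted p-values of 1.8e-07 to 4.4e-07. Espl1, or separase, the protease that cuts cohesin, was detected on all KO arrays and no CON array, at a level at least 2.03-fold higher in KO (adjusted p = 9.3e-06). On the same terms Cdc25c was at least 1.10-fold and Ndc80 at least 1.12-fold higher. The groups of Ndc80 overlapped near the detection limit, with 5.37 on KO array 4 and 5.43 on CON array 1. Of the 21 genes, 13 were detected on all 8 arrays, while others, such as Espl1 and Kif2c, entered the test through KO. When detection on all 8 arrays was required, 12 of the 13 rose. In the main fit, 21.0% of all genes so detected rose.

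Of 16 other tested replication genes 10 (62.5%) rose, against the same 24.4%, none fell and 6 did not pass, with a median of 0.26. The leading ones were Uhrf1 (1.70 ± 0.07, adjusted p = 2.3e-08), which keeps DNA methylation through replication, thymidine kinase Tk1 (1.45 ± 0.13, adjusted p = 5.4e-06), the initiation factor Mcm10 (1.40 ± 0.14, adjusted p = 1.5e-05) and the chromatin assembly subunit Chaf1b (0.61 ± 0.08, adjusted p = 7.7e-05).

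Of 18 other tested genes of G1 and the Rb pathway 3 (16.7%) rose, 6 (33.3%) fell and 9 did not pass, against 24.4% higher and 36.5% lower among all tested genes. Their median was -0.09, against -0.12 over all tested genes. Here the activating E2F factors parted, E2f2 rising by 1.84 ± 0.12 (adjusted p = 5.1e-07) and E2f3 falling by 1.08 ± 0.09 (adjusted p = 4.5e-06). On their brightest probes E2f4, E2f5 and E2f6 gave 0.11, 0.02 and -0.08 and did not pass. Another probe of E2f6 fell by 0.63 (adjusted p = 0.00048) and a further one gave -0.20, so no direction is given for E2f6. Cdkn2a, the locus of p16 and p19Arf, was not detected on any CON array, with a KO level at least 1.64-fold higher (adjusted p = 0.00016), and Ccng1, a cyclin that p53 induces, fell by 0.63 ± 0.07 (adjusted p = 4.6e-05).

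Of 8 tested p53 target genes other than Cdkn1a, 6 (75.0%) fell, against 36.5% of all tested genes, and Sesn1 rose by 0.33, with a median of -0.76. Mdm2 did not pass on its brightest probe (-0.20), while another of its probes fell by 0.30 (adjusted p = 0.0061). The rise of Sesn1 was no longer called when KO array 1 or CON arrays 3 or 4 were left out. Gadd45a, which is induced by DNA damage, fell by 1.59 ± 0.08 (adjusted p = 7.9e-08), Sesn2 by 0.85 ± 0.07 (adjusted p = 3.8e-06), Phlda3 by 0.90 ± 0.09 (adjusted p = 1.3e-05) and Trp53inp1 by 0.93 ± 0.10 (adjusted p = 1.8e-05).

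**Figure D5:**
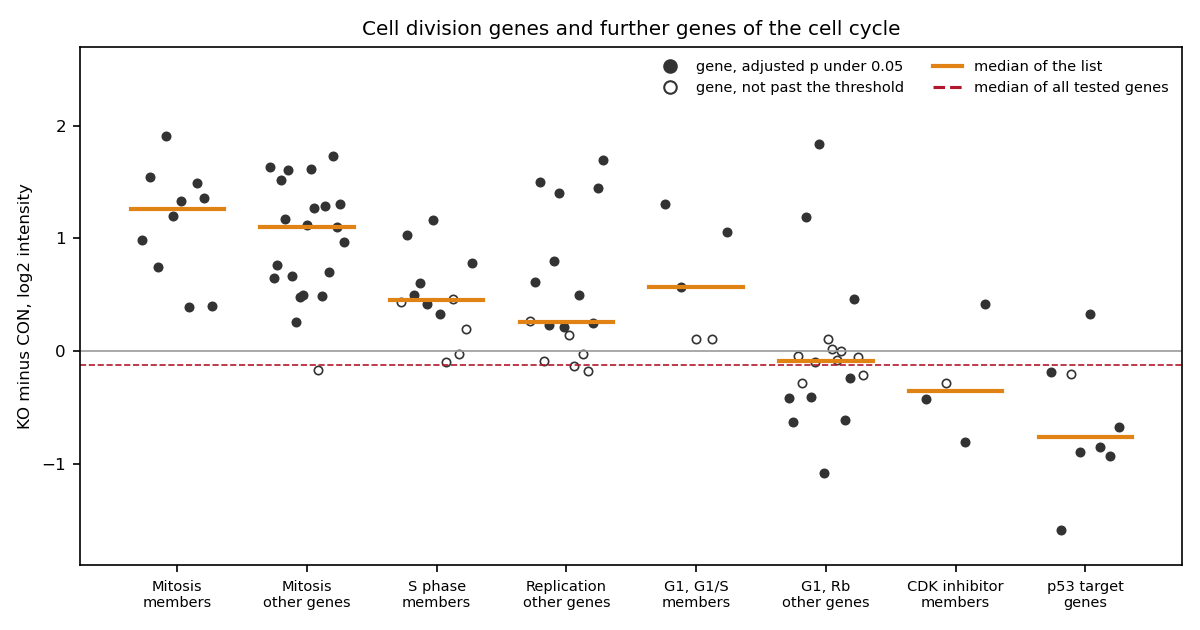
KO minus CON log2 intensity (y axis) of each tested gene, with cell division genes beside further genes of the same role and p53 target genes; filled points passed the threshold, bars are list medians and the dashed line is the median of all tested genes, -0.12. The medians are 1.26 and 1.10 for mitosis, 0.45 and 0.26 for S phase and replication, 0.57 and -0.09 for G1 and -0.35 and -0.76 for CDK inhibitors and p53 targets.

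Markers of other cells in the dissected tissue also differed between KO and CON, to unlike degrees. Their counts stand against 24.4% higher and 36.5% lower among all tested genes. Summed over the marker list, neutrophil and precursor genes stood at 28800 to 31100 intensity units in KO, against 11200 to 11900 in CON. All 9 of 9 tested rose, of which 6 were detected on all 8 arrays. S100a8, S100a9 and Ltf made up most of the sum, with means of 14.13, 12.66 and 12.0 in KO and 12.65, 10.48 and 11.64 in CON. Since S100a8 and S100a9 are also expressed by epidermal keratinocytes, the sum does not isolate neutrophils. Mpo and Elane, which mark neutrophil precursors, were higher by 1.98 and 0.93. Macrophage genes stood at 21500 to 23900 in KO, against 2170 to 2320 in CON, with 4 of 6 higher and Lyz2 making up most of the sum. Fcgr1 (0.54, adjusted p = 0.058) and the brightest probe of Aif1 (-0.11) were not called, while another Aif1 probe rose by 1.06. Lymphocyte genes stood at 282 to 356 in KO, against 127 to 149 in CON, with 4 of 4 tested higher. Of these, Cd3d, Cd3e and Cd3g were undetected in CON and Cd79b was detected on 3 CON arrays, so all 4 entered the test through KO. Cd2, Cd79a and Ms4a1 were too dim to be tested.

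Suprabasal epidermal genes stood at 40900 to 42700 in KO, against 2090 to 2910 in CON, with 3 of 3 tested higher. Krt10 and Lor made up most of the sum. Krt1 was undetected in CON and entered the test through KO, and Ivl and Dsg1a were detected on no array. Basal keratinocyte genes stood at 72300 to 74900 in KO, against 82300 to 85700 in CON, with none of 5 higher and 3 lower. Skeletal muscle genes stood at 18500 to 20500 in KO, against 5170 to 5990 in CON, with 6 of 6 higher. Ameloblast genes stood at 46000 to 51100 in KO, against 38100 to 40700 in CON (3 of 5 higher). Fibroblast genes stood at 39900 to 47200, against 33000 to 35300 (2 of 5 higher), and endothelial genes at 1320 to 1650, against 934 to 1140 (2 of 3 higher). Erythroid precursor genes stood at 38200 to 44400, against 42700 to 49200 (2 of 3 higher, Tfrc lower). Alas2 and Hba-a1 rose by 1.08 and 0.66, while Tfrc averaged 13.99 in KO and 14.90 in CON. The lower erythroid sum therefore follows Tfrc and not the other genes. The part of any of these cells in the differences of the cell division genes was not tested.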

How the data were processed

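Total RNA of 4 KO and 4 CON samples was labelled and hybridised to Illumina MouseRef-8 arrays, which the authors processed in GenomeStudio (version not given in the sources used here). Their deposited table without normalization has, for each array, a linear mean bead intensity for each of 25697 probes. Each intensity is deposited with its detection p-value, set against negative control beads. A further deposited table of intensity values, normalized by the authors, served as an alternative. Every column belonged to a labelled sample.

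Groups came from the labels. The neqc function of limma 3.58.1 (R 4.3.3) corrected the background (control distribution inferred from the detection p-values, offset 16, quantile normalization, log2). Tests ran on the 12838 probes that reached a detection p-value below 0.01 on 4 or more arrays, of which 59.7% were called. The KO and CON arrays entered lmFit and eBayes, two-sided, without covariates, with Benjamini-Hochberg adjustment over all tested probes and a threshold of 0.05. The brightest tested probe stood for a gene. Folds are the log2 differences put back on the linear scale as ratios. They are taken after the offset, which understates changes of dim genes. "At least" folds set the brighter group's mean against the higher of the dim probe's value and the lowest detected value, per array. Symbols came from the platform annotation (23978 probes had 1 symbol, 0 several, 1719 are unnamed here).

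The members and lists were chosen with earlier results of these data known, so no list was given a test. Values on every array are given for Med1 and, in each role, for up to 6 called members with the largest difference that were detected in both groups and for the brightest member not called. Of each further list up to 4 called genes by moderated statistic are named, and others named there were chosen after their values were seen. The fit was tested on simulated data. Alternatives were the deposited normalized values, other background, scaling, filter, variance, probe and threshold settings, the replicate number as a block, the methods' t-test and leaving out each array. Promoters were those of RefSeq (GRCm38.p6). Figures were drawn with Python 3.11.15, pandas 2.3.3 and matplotlib 3.10.9.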

Additional observations from a re-analysis of the deposited data

Results flagged for a closer look

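In 2 of the 62 groups of 4 arrays examined, over the 31 tested cell division genes, 1 array lay far from the others by Dixon's criterion, which chance alone meets in about 1 group in 20. Both were CDK inhibitors. Cdkn2c had a log2 intensity of 7.50 on KO array 2, against 8.12 to 8.25 on the other KO arrays. Cdkn1b had 6.74 on CON array 4, against 6.39 to 6.43 on the other CON arrays.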

How the results depend on the processing

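Of the 23 cell division genes called, 14 kept their call in every alternative that tested them. Among the 25 settings, those that only changed a list gave no values of single genes. Of 526 values of called genes, under 22 or 23 settings per gene, 487 kept their side of the threshold, 39 lost it and 0 changed direction. Those that lost it most were Tpx2, Cdkn2c and Mcm6. The signs that turned belonged to genes that were not called: Mcm7 to 0.07 and Rrm1 to 0.14 under cyclic loess, Rrm1 to 0.05 without KO array 4 (its range was -0.08 to 0.05 when each array was left out), Ccnd3 to -0.06 and Cdk2 to -0.05 under median scaling, and Ccnd3 to -0.25 (adjusted p = 0.011) and Cdk2 to -0.16 with the mean of a gene's probes. The cause was not tested.

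Cyclic loess moved the median of all tested genes to 0.03, against -0.12, and the share of higher among called probes to 56.7%, against 37.5%, with 2850 probes lower, against 4787. The methods' t-test at their threshold called 3268 probes, with 53% of them higher and 1535 lower, and among cell division genes 13 higher and 1 lower, among S phase genes 4 higher, among CDK inhibitors 0 higher and 1 lower, among other replication genes 6 higher, among other G1 and Rb genes 2 lower and among p53 targets 0 higher. G1 and G1/S regulators called higher numbered 5 under cyclic loess and with the methods' t-test after Benjamini-Hochberg, and 1 was called lower with the mean of a gene's probes. CDK inhibitors called higher numbered 0 with no filter on dim probes, at an adjusted p under 0.01 and with the methods' t-test after Benjamini-Hochberg, and 0 to 1 when each array was left out. p53 targets called higher numbered 0 under median scaling, at an adjusted p under 0.01 and with the methods' t-test after Benjamini-Hochberg, and 0 to 1 when each array was left out. Other replication genes called higher numbered 6 at an adjusted p under 0.01. When detection on all 8 arrays was required, 12 of the 13 other mitosis genes so detected were called higher.

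The mitosis median was 0.81 with the deposited normalized values and with no background correction, 1.08 with an offset of 50, 1.18 under median scaling, 1.44 under cyclic loess, 0.59 with no filter on dim probes, 1.34 when detection on all 8 arrays was required, and 1.20 with a detection p-value under 0.05 or without Mki67 and Top2a. It was 1.20 to 1.32 when each array was left out. The S phase median was 0.22 with the deposited normalized values and with no background correction, 0.33 with an offset of 50, 0.60 under cyclic loess and 0.42 to 0.50 when each array was left out. Their difference was 0.59 with the deposited normalized values and with no background correction, 0.73 under median scaling, 0.14 with no filter, 0.88 when detection on all 8 arrays was required and 0.70 to 0.89 when each array was left out, so mitosis stayed above S phase in each of these settings. Moving Ccna2 to the mitosis list changed nothing, since it was detected on no array.

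Same-numbered KO and CON arrays did not deviate together (correlations of -0.01, 0, 0 and 0.02), and 0 KO arrays correlated best with the CON array of their own number. No pairing by number was seen, but these values cannot exclude that same-numbered samples were matched. With the replicate number as a block 7390 probes were called, against 7665, and the same number of cell division genes, 21 higher and 2 lower. Signal over background limits the dim genes, 10 of which could not be tested.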
